A study of Mus musculus with 112 samples.

Results

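The tissue inhibitors of metalloproteinases are encoded in the mouse by Timp1, Timp2, Timp3 and Timp4, and these 4 genes were followed in muscle held in a cast. They were chosen by symbol and make up 4 of the 32544 gene symbols in the count tables. All 4 passed the filter on low counts, as did 11886 symbols in all, although Timp1 was close to the detection limit in many libraries. The samples were gastrocnemius muscles from 28 female and 28 male mice of the Diversity Outbred stock, 56 in all and 16 weeks of age, a stock in which every animal carries its own mixture of founder genomes. A cast held 1 limb of each mouse for 3 weeks. The left limb served as the control and the right limb was the immobilized one, which gives 4 groups of 28 libraries, and the side of the body and the cast cannot be told apart. The control limb came from a mouse that carried a cast on its other limb, and no mouse without a cast is among the samples. No transgene or engineered allele is named for any group.

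TIMP proteins bind the active site of matrix metalloproteinases and block the cleavage of collagens and other matrix proteins. TIMP1 is secreted by fibroblasts and inflammatory cells and inhibits most secreted metalloproteinases, but is weak against the membrane-type enzymes. TIMP2 is made widely in connective tissue. It inhibits metalloproteinases, and it also bridges pro-MMP2 to the membrane enzyme MMP14, which then cuts pro-MMP2 to its active form, so that TIMP2 serves both as an inhibitor and as a cofactor. TIMP3 is held in the extracellular matrix and also inhibits ADAM and ADAMTS proteases. TIMP4 has a narrow expression pattern, with high levels in heart, muscle and fat. The comparison of the limbs addresses how the transcripts of these inhibitors moved in immobilized muscle relative to those of Mmp2, a gelatinase, Mmp3, a stromelysin that activates other proteases, Mmp13, a collagenase, and Mmp14, the activator of MMP2.

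The bases before the start sites of the genes are shown because Timp1 and Timp2 changed together from mouse to mouse while Timp3 and Timp4 did not follow them. The stretches come from RefSeq promoter windows on GRCm38.p6, matched by symbol for 4 of 4 genes, and are written 5′ to 3′ on the strand of the gene. They are the Timp1 stretch at chrX:20869916-20870165 (plus strand), the Timp2 stretch at chr11:118355431-118355460 (minus strand), the Timp3 stretch at chr10:86300162-86300371 (plus strand) and the Timp4 stretch at chr6:115252206-115252455 (minus strand). For Timp3 the stretch stops where a GENCODE exon of the gene begins, and for Timp2 it is limited to 30 bases because 203 of the 250 bases before its RefSeq start lie in GENCODE exons. Capitals mark matches to the motifs searched, which here are AGGAAG, of the kind bound by ETS factors, and GGGCGG, the GC box of SP1, each on either strand.
Timp1: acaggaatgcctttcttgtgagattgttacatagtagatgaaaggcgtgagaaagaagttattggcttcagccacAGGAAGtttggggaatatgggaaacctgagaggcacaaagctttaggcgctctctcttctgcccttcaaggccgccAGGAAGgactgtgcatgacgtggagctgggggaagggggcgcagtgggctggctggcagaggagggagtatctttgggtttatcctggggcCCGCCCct
Timp2: ctggggagggctGGGCGGcgcggcgcggga
Timp3: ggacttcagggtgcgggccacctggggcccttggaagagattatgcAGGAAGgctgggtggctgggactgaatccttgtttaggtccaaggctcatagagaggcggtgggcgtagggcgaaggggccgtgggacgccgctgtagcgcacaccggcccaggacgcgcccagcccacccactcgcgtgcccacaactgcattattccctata
Timp4: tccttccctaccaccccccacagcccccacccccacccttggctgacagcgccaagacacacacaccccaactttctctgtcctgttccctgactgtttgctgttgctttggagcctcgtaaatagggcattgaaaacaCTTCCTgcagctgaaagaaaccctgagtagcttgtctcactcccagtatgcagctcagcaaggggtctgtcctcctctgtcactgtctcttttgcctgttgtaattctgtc

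The search covered 250 bases before to 50 bases after each start site, on both strands. AGGAAG was found 3 times for Timp1, once for Timp3 and once for Timp4, and had no match for Timp2. GGGCGG was found once for Timp1, once for Timp2 and 2 times for Timp3, and had no match for Timp4. Among 32851 RefSeq windows of the same length, 35.4% held AGGAAG and 35.7% held GGGCGG, so neither is rare. TGAGTAA, a variant of the site of AP-1 factors, began 27 bases into the Timp1 transcript and was found in 2.68% of all windows. Neither TGANTCA, the common AP-1 site, nor TATAAA matched in any of the 4 windows, against 7.81% and 13.6% of all windows. The motifs do not overlap one another in these windows. Timp1 and Timp2 shared GGGCGG among the motifs searched, and Timp3 held it as well.

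Libraries held from 1716485 to 9995936 counts, with a median of 4395118. The defining markers of muscle fibres were present in every group, with medians of their summed level from 145998 to 165130 CPM (read counts brought to one library size by TMM). Muscle actin, Acta1, was under 50% of its median in 10 libraries, each from a different mouse. These were 4 immobilized and 3 control limbs of females (mice 2, 22, 41 and 42, and mice 26, 44 and 48) and 1 immobilized and 2 control limbs of males (mouse 35, and mice 52 and 55). In the control limb with the least muscle RNA, that of a male, the fibre markers summed to 13.8 CPM. The labels of males 15 and 16 were in doubt as well. On 150 genes whose level matched between the limbs of the other mice, the control limb of male 15 correlated at 0.958 with the immobilized limb of male 16, and at -0.01 with its own. The control limb of male 16 correlated at 0.961 with the immobilized limb of male 15. Both mice were kept as labelled. An exchange between them changes no mean of the male groups, but it bears on everything that uses the pairing of limbs. That includes the paired fits, the per-mouse changes and their correlations. In bulk tissue, fewer cells of a type and less RNA per cell cannot be told apart.

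Per kilobase of exon, Timp2 was the most abundant inhibitor transcript of the 4 in muscle and Timp1 or Timp4 the least. In female control limbs the median levels were 30.6 CPM per kilobase for Timp2, 20.2 for Timp3, 6.86 for Timp4 and 1.92 for Timp1. In male control limbs they were 30.1 for Timp2, 19.8 for Timp3, 9.63 for Timp4 and 1.30 for Timp1. Timp2 lay above Timp3 in 102 of 112 libraries and Timp3 above Timp4 in 111 of 112. The order of the lower pair was less fixed, with Timp4 above Timp1 in 81 libraries and below it in 31. In immobilized limbs of females the medians of that pair changed places, at 6.90 for Timp1 and 6.06 for Timp4, while in males Timp1 stayed below Timp4 at 2.79 and 8.63. Exon lengths are those of GENCODE M21, and these levels are approximate, since the annotation used for counting may differ.

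**Figure D1:**
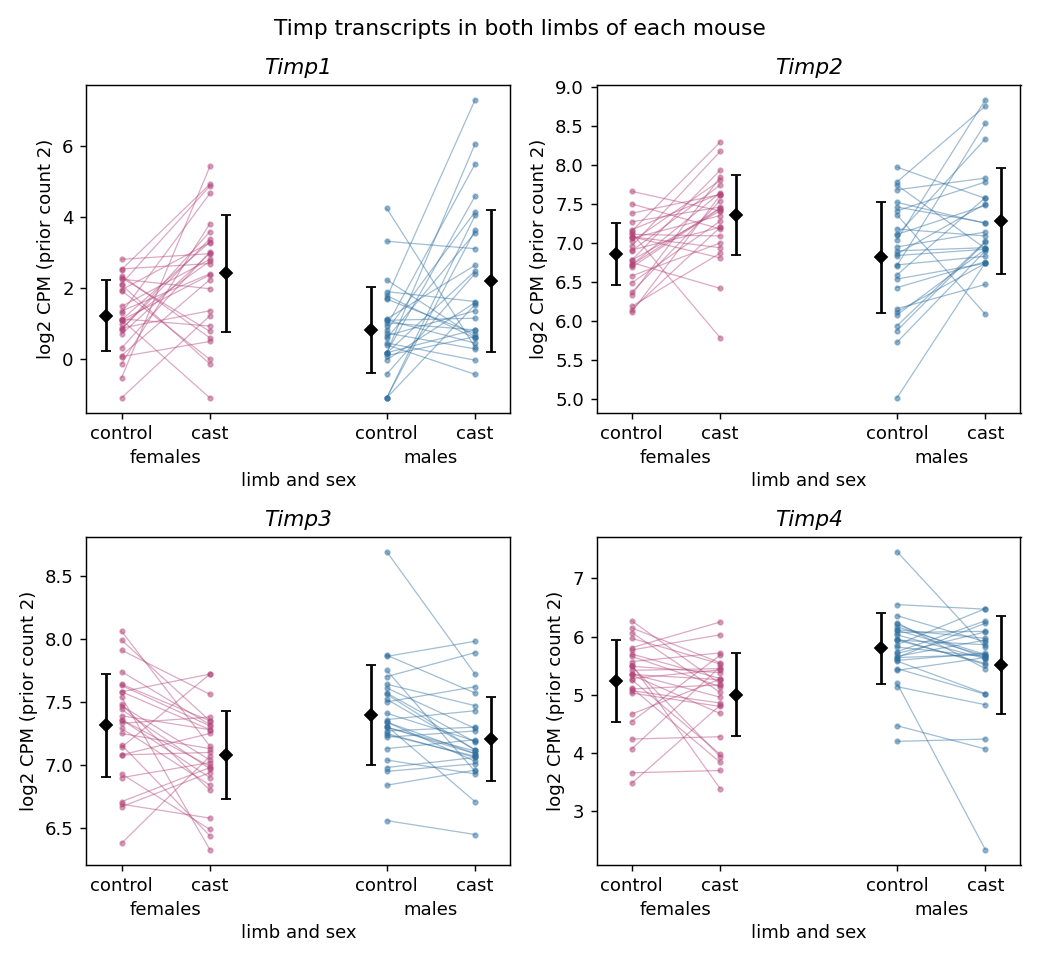
Level of each Timp transcript in log2 CPM (y axis, prior count of 2) in the control and the cast limb, with a line for each mouse, females on the left and males on the right of each panel. Diamonds and bars are means and SD of 28 libraries. Timp1 and Timp2 lines mostly climb, with the cast limbs of 4 males above all male control limbs, and Timp3 and Timp4 lines lean downwards.

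Timp1, the inducible member, had the widest range of the 4 on the log2 scale in every group. In female control limbs it ran from 0 to 6.55 CPM with a median of 1.71, and in female immobilized limbs from 0 to 42.7 with a median of 6.13. In males the control limbs ran from 0 to 18.5 CPM with a median of 1.15, and the immobilized limbs from 0.274 to 158 with a median of 2.48. The limbs overlapped in both sexes, but 12 of 28 immobilized limbs of females and 4 of 28 of males lay above the highest control limb of their sex. Those 4 males were mice 31, 35, 37 and 54, at 44.9, 158, 66.8 and 23.6 CPM. The counts behind these levels were small, with a median of 7.5 reads per library in female and 4.5 in male control limbs. No read was found in 5 of 112 libraries, where 3 reads would have corresponded to 0.613 to 1.53 CPM, a limit that covers counting error only.

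Within mice, the mean change of Timp1 in log2 CPM was 1.19 ± 1.99 in females and 1.38 ± 2.51 in males (SD, n = 28 each). The change ran from -2.23 in female 27 to 5.97 in female 30, and from -3.92 in male 53 to 5.90 in male 37. The level was higher in the immobilized limb of 21 of 28 females and 17 of 28 males, and it had at least doubled in 17 females and 13 males. In the paired fit, tested by quasi-likelihood in edgeR and adjusted over all genes by Benjamini-Hochberg, the log2 fold change was 1.49 ± 0.48 in females (SE, adjusted p = 0.0539) and 1.63 ± 0.53 in males (SE, adjusted p = 0.0848). Timp1 thus missed the threshold of 0.05 in both sexes, with normal 95% intervals of 0.56 to 2.42 and 0.59 to 2.67. DESeq2 called it in both, at 1.48 in females (adjusted p = 0.0116) and 1.58 in males (adjusted p = 0.0105), and limma voom did so too, at 1.86 (adjusted p = 0.011) and 2.45 (adjusted p = 0.00185). A fit that ignored which limbs shared a mouse gave 1.89 (edgeR adjusted p = 0.014) and 2.67 (edgeR adjusted p = 0.000158). In limma fits of the per-mouse changes the adjusted p was 0.0746 in females and 0.0532 in males. As each mouse was left out, 1 of 28 fits passed in females, without mouse 26 (limma adjusted p = 0.0237), and 6 of 28 in males, without any 1 of mice 18, 33, 40, 51, 53 and 58.

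Timp2 rose past the threshold in both sexes, the 1 member to do so by edgeR. In female control limbs it ran from 69.3 to 201 CPM with a median of 119, and in female immobilized limbs from 55.0 to 313 with a median of 171. In males the control limbs ran from 31.9 to 250 CPM with a median of 117, and the immobilized limbs from 67.4 to 456 with a median of 133. The limbs overlapped widely, and 6 immobilized limbs of females and 4 of males lay above the highest control limb. The 4 males were the same mice that stood above the control range in Timp1, at 321, 456, 429 and 370 CPM for mice 31, 35, 37 and 54. The log2 fold change was 0.51 ± 0.13 in females (SE, edgeR adjusted p = 0.0242), a fold of 1.43, with 21 of 28 mice higher. In males it was 0.47 ± 0.13 (SE, edgeR adjusted p = 0.0453), a fold of 1.39, with 22 of 28 mice higher. Without males 15 and 16 the male value was 0.48 and the male call was lost (edgeR adjusted p = 0.05 after rounding). Without the 10 mice with a low Acta1 library the values were 0.55 in females (edgeR adjusted p = 0.00737) and 0.41 in males (edgeR adjusted p = 0.0404).

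With these calls, 1 of the 4 inhibitors was higher and 0 lower in each sex by edgeR, against 2 higher and 1 lower at an unadjusted p under 0.05. DESeq2 and limma voom each called 2 higher and 1 lower in females, and 2 higher and 0 lower in males. Of all 11886 genes tested, 2.10% were called higher and 2.47% lower in females, and 1.09% higher and 1.12% lower in males. The male call of Timp2 lay close to the threshold. Each mouse was left out in limma fits of the per-mouse changes, and not in edgeR. In these fits the adjusted p of Timp2 in males was 0.0375 with all mice and ran from 0.0151 to 0.0762, with 17 of 28 fits past the threshold. The log2 fold change stayed between 0.42 and 0.53. The limma call was lost without any 1 of males 11, 12, 14, 17, 19, 20, 31, 35, 37, 52 and 54, and the highest adjusted p came without male 35. In females 27 of 28 such fits passed, with an adjusted p of 0.0527 without female 30.

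Timp3, the matrix-bound inhibitor, was lower in most immobilized limbs by a small amount. In female control limbs it ran from 82.7 to 267 CPM with a median of 164, and in female immobilized limbs from 80.1 to 210 with a median of 135. In males the control limbs ran from 93.8 to 414 CPM with a median of 161, and the immobilized limbs from 87.0 to 252 with a median of 139. No immobilized limb lay above the highest control limb in either sex, and 1 in each sex lay below the lowest. The log2 fold change was -0.23 ± 0.07 in females (SE, edgeR adjusted p = 0.0503), with 19 of 28 mice lower, and -0.19 ± 0.07 in males (SE, edgeR adjusted p = 0.154), with 18 of 28 lower. The female value sat at the threshold, and crossed it by DESeq2 at -0.22 (adjusted p = 0.0254), by limma voom at -0.22 (adjusted p = 0.0496), by limma on per-mouse changes at -0.23 (adjusted p = 0.046) and without the low Acta1 mice at -0.20 (edgeR adjusted p = 0.0249). In the leave-out fits of females, 11 of 28 passed, with limma adjusted p from 0.00641 to 0.111, the lowest without female 26 and the highest without female 42. The limma call was lost without any 1 of females 1, 4, 5, 8, 9, 21, 22, 23, 24, 25, 30, 41, 42, 43, 44, 46 and 48. The highest male control level, 414 CPM, was that of mouse 52, whose library held little muscle RNA.

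Timp4, the member with the most tissue-restricted expression, did not pass the test in either sex. In female control limbs it ran from 10.7 to 76.8 CPM with a median of 40.5, and in female immobilized limbs from 10.0 to 75.4 with a median of 35.7. In males the control limbs ran from 18.0 to 176 CPM with a median of 56.8, and the immobilized limbs from 4.60 to 88.8 with a median of 50.9. The limbs overlapped, with 0 immobilized limbs above the highest control limb, and 1 in females and 2 in males below the lowest. The log2 fold change was -0.23 ± 0.14 in females (SE, edgeR adjusted p = 0.308) and -0.26 ± 0.14 in males (SE, edgeR adjusted p = 0.341), with 16 and 18 of 28 mice lower. The 95% intervals, -0.51 to 0.05 and -0.53 to 0.02, allow both a fall and no change. Both extremes in males were libraries low in Acta1: the highest, at 176 CPM, was the control limb of mouse 52, and the lowest, at 4.60 CPM, the immobilized limb of mouse 35.

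**Figure D2:**
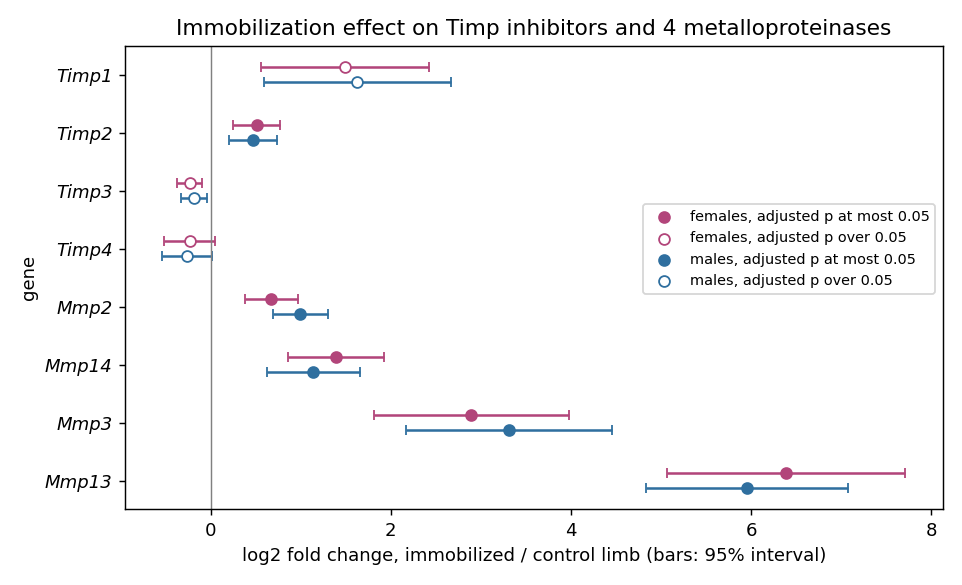
Immobilization effect as log2 fold change with its 95% interval (x axis) for each Timp gene and the 4 metalloproteinases (y axis), from the paired edgeR fit, females and males in separate colours. Filled circles have an adjusted p of at most 0.05 and open circles do not. All 4 metalloproteinases and Timp2 are filled, and the intervals of the sexes overlap for every gene.

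The response of the inhibitors was not shown to differ between the sexes. The male minus female difference in log2 fold change was 0.14 ± 0.68 for Timp1, -0.04 ± 0.19 for Timp2, 0.05 ± 0.10 for Timp3 and -0.02 ± 0.20 for Timp4 (SE, edgeR adjusted p = 1 for each). Of all genes tested, 0% were called in this contrast by edgeR, with 194 genes at an unadjusted p under 0.05, and DESeq2 called 0 with 261 at that level. Both counts are below a share of 0.05 of the 11886 genes, the share that would pass if no gene differed. The contrast may thus miss differences. The 95% intervals are narrow for Timp3, -0.16 to 0.25, and wide for Timp1, -1.20 to 1.47, so a sex difference of more than a doubling in the Timp1 response lies within them.

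Compared between the sexes, Timp4 had the largest difference of the 4 in control limbs. Its mean in control limbs was 41.0 ± 16.8 CPM in females and 60.0 ± 28.2 in males (SD, n = 28 each), and 24 of 28 males lay above the female median. The log2 difference, male minus female, was 0.56 ± 0.17 (SE, edgeR adjusted p = 0.0648). In immobilized limbs the means were 35.2 ± 15.5 and 51.0 ± 20.0 CPM, with 22 of 28 males above the female median and a log2 difference of 0.54 ± 0.18 (SE, edgeR adjusted p = 0.0717). It missed the threshold in both limbs, and so did the other members, whose differences ran from -0.11 to 0.09 in control limbs and from 0.01 to 0.66 in immobilized limbs (edgeR adjusted p from 0.459 to 0.983). Of all genes, 1.80% were called between the sexes in control and 4.86% in immobilized limbs, against 0 of the 4 inhibitors by edgeR, with 1, Timp4, at an unadjusted p under 0.05 in each limb. Without the low Acta1 mice the Timp4 difference was 0.46 (edgeR adjusted p = 0.147) in control and 0.49 (edgeR adjusted p = 0.17) in immobilized limbs.

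The level of an inhibitor in a mouse's control limb went with the level in its cast limb for Timp3, Timp4 and, more weakly, Timp2, and no relation was shown for Timp1. Across 56 mice, centred within sex, the limbs correlated for Timp3 with Pearson's r of 0.53 (permutation p = 5e-05) and Spearman's rho of 0.54 (permutation p = 6e-05). For Timp4 r was 0.45 (permutation p = 0.00074) and rho 0.41 (permutation p = 0.00218), and for Timp2 r was 0.28 (permutation p = 0.0489) and rho 0.32 (permutation p = 0.019). For Timp1 r was -0.13 (permutation p = 0.354) and rho -0.15 (permutation p = 0.266). Leaving out the 2 mice farthest from the median left r at 0.54, 0.43, 0.24 and -0.11 in the same order. These are 4 relations with unadjusted p-values.

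The metalloproteinases against which the inhibitors were set all rose. They were chosen with earlier results of these data known. Of 7 secreted and 4 membrane-type enzymes tested, 3 and 1 were called higher in each sex by edgeR, and these make up the sum. Their rise therefore does not describe metalloproteinases at large. The summed level of the 4 had a median of 112 CPM in female control limbs, with a range of 53.0 to 203. In female immobilized limbs it was 214, with a range of 27.9 to 573. In males the medians were 86.7 and 154 CPM, with ranges of 27.1 to 144 and 96.3 to 1235. Mmp2 made up most of the sum, from 75.2% in male immobilized to 87.2% in female control limbs. The log2 fold changes were 0.67 ± 0.15 for Mmp2, 1.39 ± 0.28 for Mmp14, 2.89 ± 0.55 for Mmp3 and 6.39 ± 0.68 for Mmp13 in females (SE, edgeR adjusted p from 2.93e-08 to 0.0109). In males they were 1.00 ± 0.15, 1.14 ± 0.26, 3.31 ± 0.58 and 5.95 ± 0.57 in the same order (SE, edgeR adjusted p from 1.23e-09 to 0.0116). Mmp13 had no read in 23 of 28 female and 22 of 28 male control libraries, so the size of its fold change depends on the fit. The summed level was higher in the immobilized limb of 26 of 28 females and 27 of 28 males.

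Set against that sum, Timp2, Timp3 and Timp4 changed less than these 4 proteases. Since the 4 were chosen with earlier results known and all rose, an inhibitor with little change falls below their sum by that choice. The intervals and counts of mice below therefore describe this set of proteases and do not test the balance with metalloproteinases at large. The change in log2(summed CPM + 1) was 0.87 in females and 1.19 in males. The Timp2 change minus the protease change was -0.37 in females, with a 95% interval of -0.58 to -0.16, and -0.72 in males, with an interval of -0.93 to -0.50, and 21 of 28 females and 25 of 28 males lay below 0. For Timp3 the difference was -1.10 (interval -1.55 to -0.65) in females and -1.37 (interval -1.79 to -0.96) in males, with 27 of 28 mice below 0 in each sex. For Timp4 it was -1.10 (interval -1.71 to -0.48) and -1.47 (interval -2.02 to -0.91), with 24 and 25 mice below 0. Timp1 was the exception, at 0.32 (interval -0.28 to 0.92) in females and 0.20 (interval -0.52 to 0.91) in males, with 15 and 17 mice above 0. Both intervals of Timp1 include 0. Since Mmp2 dominates the sum, the choice of proteases matters: without Mmp2 the protease change was 1.65 in females and 1.69 in males, and Timp1 minus protease change became -0.46 (interval -1.12 to 0.21) and -0.30 (interval -0.96 to 0.36). With that sum Timp2 was at -1.14 and -1.22, Timp3 at -1.88 and -1.87, and Timp4 at -1.87 and -1.96, in females and males. These values compare log changes of transcripts and not amounts of protein.

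Across mice, the changes in Timp1 and Timp2 went up with the change in the summed proteases, that in Timp4 went down, and that in Timp3 showed no clear relation. For Timp2 Pearson's r was 0.83 and Spearman's rho 0.77 over 56 mice, centred within sex, and for Timp1 r was 0.72 and rho 0.70 (permutation p = 1e-05 for each, the smallest that 100000 permutations can give). Timp4 had r of -0.54 (permutation p = 2e-05) and rho of -0.45 (permutation p = 0.00038), and Timp3 had r of -0.28 (permutation p = 0.0377) and rho of -0.15 (permutation p = 0.273). The mice farthest from the median were female 26, with a protease change of -2.57, and male 35, with 3.09, both with a low Acta1 library. Without them r was 0.78 for Timp2, 0.72 for Timp1 and -0.38 for Timp4, but -0.06 for Timp3, whose relation rested on these 2 mice. Both changes of a mouse come from the same pair of libraries and share their depth and tissue make-up.

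**Figure D3:**
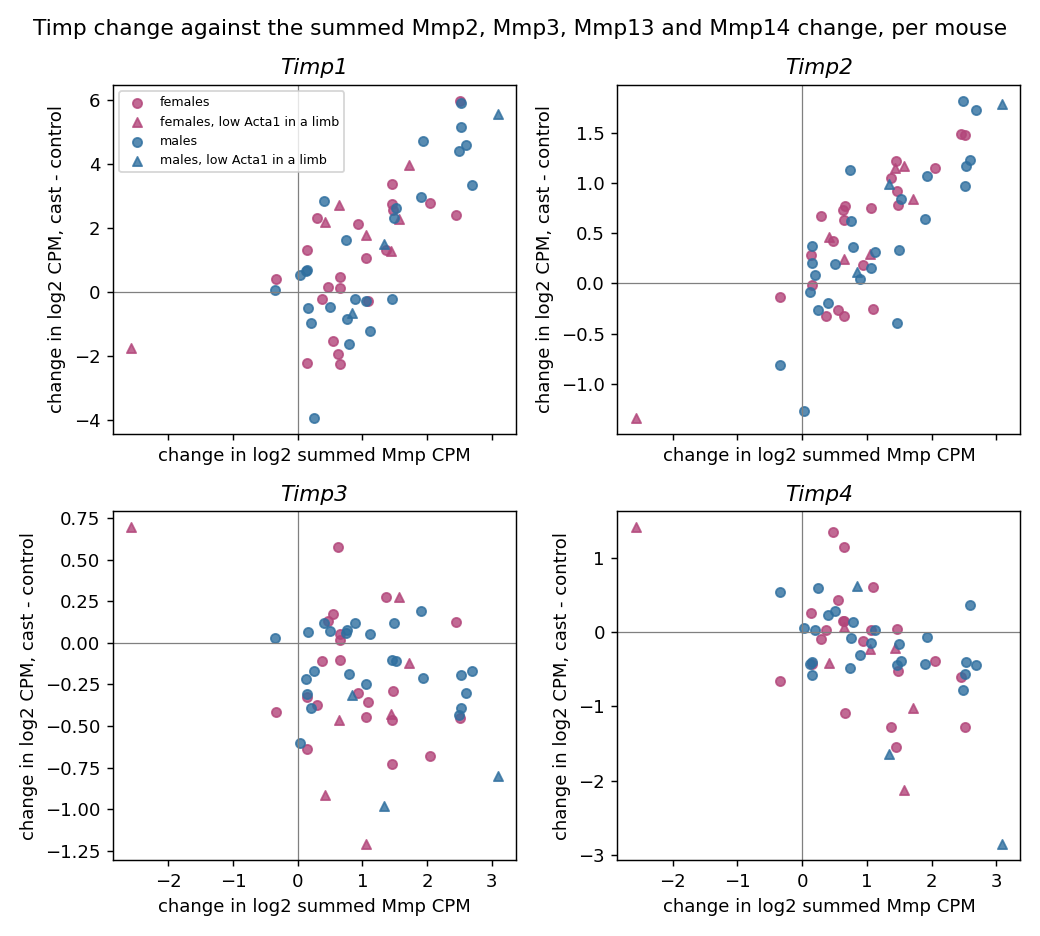
Change in log2 CPM of each Timp gene, cast minus control limb (y axis), against the change in the log2 summed level of Mmp2, Mmp3, Mmp13 and Mmp14 (x axis), with 1 point per mouse. Triangles are mice with a library low in Acta1. Points climb to the right for Timp1 and Timp2 and descend for Timp4, and female 26 lies alone at the left of each panel.

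The relations of Timp1, Timp2 and Timp4 held in each sex. For Timp2 r was 0.84 in females and 0.82 in males (permutation p = 1e-05 for each), and for Timp1 0.65 (permutation p = 0.00018) and 0.79 (permutation p = 1e-05). For Timp4 r was -0.57 (permutation p = 0.00162) in females and -0.50 (permutation p = 0.00357) in males, and for Timp3 -0.29 (permutation p = 0.132) and -0.28 (permutation p = 0.143). Within the mice numbered 1 to 20, 21 to 40 and 41 to 59, r was 0.74, 0.75 and 0.74 for Timp1 and 0.82, 0.96 and 0.61 for Timp2 (permutation p from 1e-05 to 0.0166), while rho for Timp2 was 0.31 in the last of these (permutation p = 0.231). For Timp4 r was -0.28, -0.69 and -0.56 in the 3 blocks (permutation p = 0.201, 0.00097 and 0.0134), and for Timp3 it was 0.18, -0.69 and -0.31 (permutation p = 0.438, 0.00658 and 0.181), with a change of sign. Female 26 and male 35, the mice farthest from the median, both fall in mice 21 to 40, and r within that block was not computed without them. By rho the values in that block were 0.94 for Timp2, -0.57 for Timp4 and -0.55 for Timp3. Without males 15 and 16 r was 0.72 for Timp1, 0.83 for Timp2, -0.30 for Timp3 and -0.55 for Timp4.

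Fitted across the whole table, the immobilization effect of Timp2 grew by 0.61 ± 0.06 per unit of log2 protease change (SE, edgeR adjusted p = 9.9e-12) and that of Timp1 by 1.96 ± 0.27 (SE, edgeR adjusted p = 1.32e-07). The slope of Timp4 was -0.41 ± 0.09 (SE, edgeR adjusted p = 0.000207) and that of Timp3 -0.11 ± 0.05 (SE, edgeR adjusted p = 0.0786). Such calls were common: of 11882 genes, 29.5% were called with a positive and 27.4% with a negative slope, so 2 and 1 of the 4 inhibitors called is close to the share among all genes. By size of rho Timp2 and Timp1 stood further out, Timp4 less so and Timp3 did not. Timp2 was among the 20 genes with the highest rho to the protease change, Timp1 among the highest 113 and Timp4 among the lowest 1118, while Timp3 had 4458 genes as low or lower. The median rho of all genes was 0.00, and the range -0.72 to 0.85. Without the low Acta1 mice the slopes were 0.62 for Timp2 (edgeR adjusted p = 2.84e-08), 2.19 for Timp1 (edgeR adjusted p = 1.36e-06), -0.24 for Timp4 (edgeR adjusted p = 0.0396) and -0.04 for Timp3 (edgeR adjusted p = 0.579), with 3205 genes called in all against 6764. With Mmp2 left out of the sum the slopes were smaller, at 0.28 for Timp2 (edgeR adjusted p = 1.55e-07), 0.99 for Timp1 (edgeR adjusted p = 1.25e-06), -0.22 for Timp4 (edgeR adjusted p = 0.000274) and -0.06 for Timp3 (edgeR adjusted p = 0.0758).

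Among themselves, the inhibitors fell into a pair that changed together and 2 that did not join it. The changes of Timp1 and Timp2 correlated with r of 0.64 and rho of 0.65 (permutation p = 1e-05 for each). The changes of Timp2 and Timp4 went in opposite directions, with r of -0.62 and rho of -0.59 (permutation p = 1e-05 for each), and so did those of Timp1 and Timp4, with r of -0.49 (permutation p = 7e-05) and rho of -0.50 (permutation p = 9e-05). Timp1 and Timp3 had r of -0.36 (permutation p = 0.00445) and rho of -0.37 (permutation p = 0.00544). Timp3 and Timp4 had r of 0.32 (permutation p = 0.0236) and rho of 0.25 (permutation p = 0.0717), and Timp2 and Timp3 r of -0.21 (permutation p = 0.118) and rho of -0.19 (permutation p = 0.171). Without the 2 farthest mice r ran from -0.59 to 0.61 over the 6 pairs. In the 46 mice without a low Acta1 library r was 0.61 for Timp1 with Timp2, -0.50 for Timp2 with Timp4 and -0.41 for Timp1 with Timp4. The 6 p-values are unadjusted.

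The genes whose per-mouse change was most like that of each inhibitor, among 11302 genes compared, differed between the members. For Timp1 they were Cthrc1 (rho 0.83), a secreted protein of collagen-producing fibroblasts, C1qtnf6 (0.79), Dpysl3 (0.76), the collagen VI chain Col6a2 (0.76) and the small proteoglycan Bgn (0.75). For Timp2 they were Fn1, fibronectin (0.88), the collagen I chains Col1a1 (0.85) and Col1a2 (0.84), the collagen VI chain Col6a1 (0.83) and Rcn3 (0.83), a calcium-binding protein of the endoplasmic reticulum. For Timp3 they were the spectrin Sptbn1 (0.75), the phospholipid enzyme Chpt1 (0.70), the caveolar gene Sdpr (0.70), the fatty acid carrier Cd36 (0.70) and catalase, Cat (0.69). For Timp4 they were Gpihbp1 (0.68), which anchors lipoprotein lipase on capillaries, Cd300lg (0.64), a receptor of capillary endothelium, Lims2 (0.64), the mitochondrial Ndufab1 (0.64) and the transcription factor Tcf15 (0.63). These were ranked over 56 mice, and in the 46 mice without a low Acta1 library rho was 0.73 to 0.86 for the 5 genes of Timp1, 0.82 to 0.89 for those of Timp2, 0.57 to 0.62 for those of Timp3 and 0.54 to 0.69 for those of Timp4. Of these 20 genes, Cthrc1 rose in both sexes, by 2.20 in females and 3.40 in males on the log2 scale (edgeR adjusted p = 0.00262 and 2.08e-05), and Cat fell in both, at -0.48 and -0.60 (edgeR adjusted p = 0.0471 and 0.0225). The changes of Rcn3, 0.63 in females (edgeR adjusted p = 0.0467) and 0.39 in males (edgeR adjusted p = 0.299), passed the threshold in females, and the sex contrast did not call this gene.

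**Figure D4:**
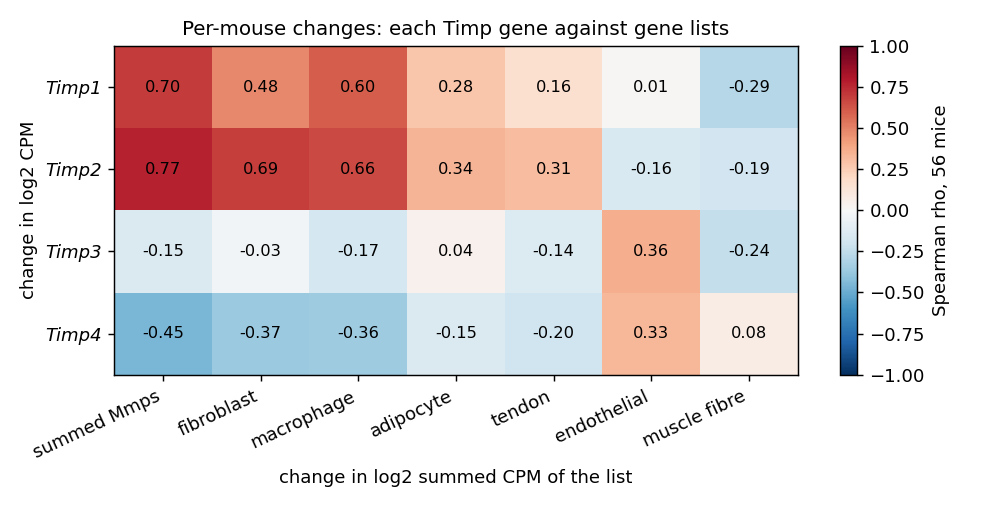
Spearman's rho over 56 mice between the change of each Timp gene (rows) and the change in the summed level of the 4 metalloproteinases and of 6 lists of cell type markers (columns). Red is positive and blue negative. Timp1 and Timp2 are red against proteases, fibroblast and macrophage markers, where Timp4 is blue, and Timp3 and Timp4 are red against endothelial markers.

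Markers of fibroblasts and macrophages changed with Timp1 and Timp2 from mouse to mouse. The median summed level of 8 fibroblast markers was 709 CPM in control and 771 in immobilized limbs of females, and 680 and 758 in males, with ranges from 227 to 1780 over all groups. For 9 macrophage markers the medians were 84.4 and 157 CPM in females and 73.5 and 94.0 in males, with ranges from 15.3 to 1397. Of the macrophage markers 5 of 9 were higher in females and 0 in males by edgeR, against 2.10% and 1.09% of all genes tested. In males 7 had an unadjusted p under 0.05 and DESeq2 called 3. Their median log2 fold change was 1.03 in females and 0.72 in males, and the sex contrast called none of them. Of the fibroblast markers 0 of 8 were called in females by edgeR, with 4 at an unadjusted p under 0.05 and 1 called by DESeq2, and 1 was higher in males. No marker of either list was at a median of 0 in any group. The change in Timp2 followed both lists, with rho of 0.69 to the fibroblast and 0.66 to the macrophage sum, and that of Timp1 with rho of 0.48 and 0.60. Timp4 had rho of -0.37 and -0.36, and Timp3 -0.03 and -0.17. The part of these cells in the Timp changes was not tested.

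In fits across all genes with each marker sum as the covariate, the slope on fibroblast markers was 1.03 ± 0.13 for Timp2 (SE, edgeR adjusted p = 7.97e-08), 2.20 ± 0.63 for Timp1 (SE, edgeR adjusted p = 0.0289), -0.54 ± 0.19 for Timp4 (SE, edgeR adjusted p = 0.0938) and 0.02 ± 0.10 for Timp3 (SE, edgeR adjusted p = 0.95). Timp1 and Timp2 were thus called with a list on which 3.74% of all genes were. On macrophage markers Timp1, Timp2 and Timp4 were called, at 0.95, 0.33 and -0.20 (edgeR adjusted p from 6.11e-09 to 0.0037), where 65.8% of all genes were. On endothelial markers Timp4 had a slope of 0.74 ± 0.24 (SE, edgeR adjusted p = 0.0102) and Timp3 of 0.31 ± 0.13 (SE, edgeR adjusted p = 0.0427), where 43.7% of all genes were called. Pearson's r of the per-mouse changes was 0.38 for Timp4 and 0.33 for Timp3. Without the 2 mice farthest from the median in this list it was 0.22 and 0.18, and without the low Acta1 mice 0.57 and 0.35. On adipocyte markers Timp2 alone of the 4 was called, at 0.08 (edgeR adjusted p = 0.012), against 60.0% of all genes. On tendon and fibre markers 0 of 4 inhibitors were called by edgeR, with 0 at an unadjusted p under 0.05, against 52.7% and 62.7% of all genes. By Spearman's rho over 56 mice, Timp2 went with tendon markers at 0.31 (permutation p = 0.0208). Timp1 went against fibre markers at -0.29 (permutation p = 0.0265). These p-values are unadjusted, and for the other pairs on these lists they were over 0.05. Without the low Acta1 mice, rho to tendon markers was 0.52 for Timp2 and -0.38 for Timp4, and rho to fibre markers was -0.24 for Timp1.

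The summed endothelial markers had medians of 303 and 319 CPM in control and immobilized limbs of females and 359 and 352 in males, and 0 of 8 markers were called in either sex by edgeR, with 3 in females and 2 in males at an unadjusted p under 0.05, and 1 and 0 by DESeq2. Adipocyte sums ran from 1.65 to 11873 CPM over all libraries and tendon sums from 4.43 to 1589, with 0 of 8 and 0 of 6 markers called by edgeR or DESeq2 and 0 at an unadjusted p under 0.05. The summed Schwann cell markers had medians of 105 and 152 CPM in control and immobilized limbs of females and 99.8 and 149 in males, with ranges from 39.6 to 926. Of 6 Schwann cell markers 0 were called in either sex by edgeR, with 4 in females and 5 in males at an unadjusted p under 0.05, and DESeq2 called 1 and 2 higher. Their median log2 fold change was 0.49 in females and 0.55 in males, and their relation to the Timp changes was not tested. The defining markers of T, B and NK cells were near 0 in most libraries, with group medians of the sum from 0.985 to 2.32 CPM, and Cd3g and Nkg7 at a median of 0 in all 4 groups. Single libraries reached 1255 CPM.

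The labels name no batch, and the mice were therefore also described in blocks of their numbers, between which the mean Timp1 change varied most of the 4. The mean Timp1 change in females was 1.64, 0.74 and 1.09 log2 CPM in the mice numbered 1 to 20, 21 to 40 and 41 to 59, and in males 1.90, 1.97 and -0.00, with 2 of 8 males higher in the last. The edgeR values within the blocks were 1.90, 0.97 and 1.34 in females (adjusted p = 0.0318, 1 and 0.455) and 2.40, 2.32 and -0.03 in males (adjusted p = 0.126, 0.522 and 0.999). Timp2 was above 0 in all 6 sex and block groups, with mean changes of 0.76, 0.39 and 0.34 in females and 0.61, 0.41 and 0.36 in males, and within blocks it passed in females 1 to 20 alone, at 0.79 (edgeR adjusted p = 0.0312). The other block values of Timp2 ran from 0.35 to 0.62 (edgeR adjusted p from 0.253 to 1). Timp3 was below 0 in all 6, from -0.26 to -0.13. Timp4 was below 0 in 5 of 6, from -0.51 to -0.22, and at 0.05 in females 41 to 59. The protease sum changed by 1.26, 0.38 and 0.87 in females and by 1.30, 1.23 and 0.99 in males. The blocks were chosen with earlier results of these data known, and a difference between them was not tested.

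**Figure D5:**
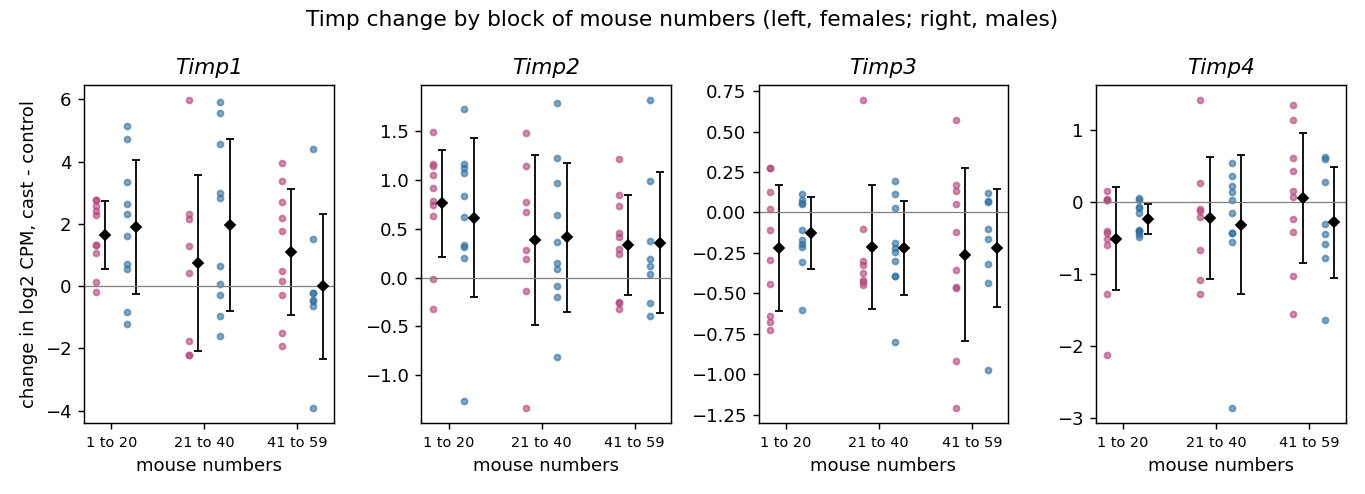
Change in log2 CPM of each Timp gene, cast minus control limb (y axis), by block of mouse numbers (x axis), females left and males right at each block. Diamonds and bars are means and SD of 8 to 10 mice. The males numbered 41 to 59 centre on 0 for Timp1, and all 6 Timp2 means lie above 0.

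The wider protease system was described by lists chosen with earlier results known. Of all genes tested, 2.10% were called higher and 2.47% lower in females, and 1.09% higher and 1.12% lower in males. Of 14 secreted metalloproteinases 7 were tested, and 3 were higher and 0 lower in each sex. The median log2 fold change of the 7 was 0.67 in females and 0.61 in males, against 0.01 and 0.00 for all genes tested. Those 3 were the secreted members of the sum, Mmp2, Mmp3 and Mmp13, so their count adds nothing independent of it. Mmp11 had 0.57 in females and 0.61 in males (edgeR adjusted p = 0.151 and 0.174). Of 7 membrane-type enzymes 4 were tested, and Mmp14 was called in both sexes. Mmp15 had 0.04 in females and -0.10 in males (edgeR adjusted p = 0.8 and 0.555). Of 16 ADAM and ADAMTS proteases, families of which TIMP3 inhibits some members, 15 were tested. In females Adamts2, which trims procollagen, rose by 0.73 (edgeR adjusted p = 0.00553) and Adamts15, which cuts versican, by 1.00 (edgeR adjusted p = 0.0337), while Adam9 fell at -0.43 (edgeR adjusted p = 0.0222). In males 0 passed by edgeR, with 6 at an unadjusted p under 0.05 and 2 called by DESeq2, and these 3 had 0.52, 0.80 and -0.32 (edgeR adjusted p = 0.0544, 0.114 and 0.0959).

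Among 11 other protease inhibitors, 8 were tested. Serpina3n, an inhibitor of serine proteases, rose in females by 1.45 ± 0.40 (SE, edgeR adjusted p = 0.0309), and Cst3, cystatin C, an inhibitor of cathepsins, rose in males by 0.28 ± 0.08 (SE, edgeR adjusted p = 0.0418). In the other sex they had 1.19 (edgeR adjusted p = 0.0893) and 0.22 (edgeR adjusted p = 0.0775). Reck, the membrane-anchored inhibitor of metalloproteinases, had 0.04 in females and -0.03 in males (edgeR adjusted p = 0.905 and 0.945) and is named for its role. Of 8 receptors and binding partners of TIMP proteins, all tested, Cd63, a partner of TIMP1 at the cell surface, rose in females by 0.36 (edgeR adjusted p = 0.0316), with 0.29 in males (edgeR adjusted p = 0.109). Kdr, the vascular receptor that TIMP3 can block, fell in males at -0.54 (edgeR adjusted p = 0.0314), with -0.41 in females (edgeR adjusted p = 0.0792). Of 27 cytokines, receptors and transcription factors known to act on Timp1 transcription, 19 were tested. By edgeR 1 was called higher and 0 lower in each sex, against 2.10% and 1.09% of all genes called higher in females and males. The median log2 fold change of the 19 was 0.0586 in females and 0.265 in males. Lifr, a receptor on this list, was lower without passing, at -0.255 in females and -0.32 in males (edgeR adjusted p = 0.145 and 0.0977). Runx1 rose in females by 1.12 (edgeR adjusted p = 0.0397), with 1.01 in males (edgeR adjusted p = 0.0813), and Il11ra1, the receptor of interleukin 11, rose in males by 0.33 (edgeR adjusted p = 0.0498), with 0.27 in females (edgeR adjusted p = 0.0758).

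Timp1, Timp3 and Timp4 lie inside the synapsin genes Syn1, Syn3 and Syn2, on the opposite strand, by GENCODE M21. Timp4 also overlaps the predicted gene Gm17482 on the opposite strand, and Timp2 overlaps Cep295nl on its own strand, neither of which was analysed here. The sources used here do not say whether counting used strand. The synapsin genes had 108, 261 and 869 reads over all libraries, against 3643, 77148 and 22442 for Timp1, Timp3 and Timp4, or 2.96%, 0.338% and 3.87% of the inhibitor's reads. None of these synapsin genes passed the filter on low counts. Reads of a synapsin gene assigned to its Timp partner cannot be told apart from reads of the inhibitor if strand was ignored.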

How the data were processed

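Total RNA of both gastrocnemius muscles of each mouse was made into stranded libraries after removal of ribosomal RNA, per the labels' protocols. The deposited tables hold raw counts per gene symbol, whole numbers, in 1 table per sex. Of the aligner, the counter, the genome build and the use of strand, none is given in the sources used here. No molecular identifiers are named, so the limit at 0 reads covers counting error only, while 95% intervals cover the spread between mice.

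All libraries were grouped by their labels and fitted in 1 model with edgeR 4.0.16 (R 4.3.3): genes kept by filterByExpr, TMM library sizes, a term per animal, 1 effect of the cast for either sex, quasi-likelihood tests and Benjamini-Hochberg adjustment over all genes tested with a threshold of 0.05. Limbs were paired by the animal number in their labels. Deviations from the group mean correlated with a median of 0.364 between limbs of a mouse and 0.00 between mice, and over 0.1 in 45 of 56 mice, with a lowest value of -0.44. The sexes were compared within the 56 libraries of each limb on the same genes, since Timp1 fails a filter recomputed in control limbs. Slopes used the per-mouse change in log2(summed CPM + 1), centred within sex, as a covariate that is 0 in control limbs. Per-mouse changes are differences of log2 CPM with a prior count of 2. Permutation p-values are two-sided, shuffled within sex, from 100000 resamples (scipy 1.17.1, numpy 2.4.6).

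Named were the 4 Timp genes and the 4 metalloproteinases, genes that overlap a Timp gene, up to 4 genes with the smallest p from each list that is no marker list, and the 5 genes most like each Timp gene in per-mouse change, predicted genes left out; Reck was named after its values were seen. Of the genes so named from lists, some that missed the threshold are left out of the text. Members and lists were chosen with earlier results of these data known. On simulated counts for 11886 genes the paired fit recovered 69% of 100 changes of 0.585 on the log2 scale and 93% of 100 changes of 1 in females, and 78% and 91% in males, with 8 and 5 genes called in error. It recovered 73.5% of 200 slopes of 0.5 with 4 errors, and 92.5% of 200 sex differences of 1 in control limbs with 13. The simulated spread was taken from control limbs alone, at a reduced size, and the simulated cast effect was the same in every mouse. The rates may thus be too high for genes that vary more in cast limbs, such as Timp1. Alternatives were other size factors, filters and tools (DESeq2 1.42.0, limma 3.58.1), no block, each sex alone, subsets of mice and, added after seeing the data, limma on per-mouse changes, leaving out each mouse, the endothelial list, correlations within number blocks and without males 15 and 16, and the filter within each limb.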

Additional observations from a re-analysis of the deposited data

How the results depend on the processing

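The Timp1 effect passed the threshold in females by DESeq2 (1.48), limma voom (1.86), with no replicate block (1.89) and within mice 1 to 20 (1.90), and in males by DESeq2 (1.58), limma voom (2.45) and with no replicate block (2.67); it turned to -0.0255 in males 41 to 59. DESeq2, limma voom and the fit within mice 1 to 20 kept the term per animal, which the fit with no replicate block left out. With no replicate block 589 genes passed in males and 1 in the sex contrast. Timp2 lost its call in females 21 to 40 (0.41) and 41 to 59 (0.35), and in males with no filter on low counts (0.48), without males 15 and 16 (0.48) and within the 3 blocks (0.62, 0.42 and 0.35). Timp3 in females gained a call by DESeq2 (-0.22), limma voom (-0.22), limma on per-mouse changes (-0.23) and without the low Acta1 mice (-0.20). Timp4 in females 41 to 59 was 0.0577. The sex contrast of effects turned for Timp1 in mice 41 to 59 (-1.37), for Timp2 by limma voom (0.00786) and in mice 21 to 40 (0.011) and 41 to 59 (0.00115), and for Timp4 without the low Acta1 mice (0.0291) and in mice 1 to 20 (0.24). Without the low Acta1 mice the sex difference turned for Timp3 in control limbs (-0.0188) and for Timp1 (-0.0466) and Timp2 (-0.0487) in immobilized limbs. Timp2 minus the protease change in females moved to -1.14 without Mmp2 in the sum, and r of Timp3 with the proteases to 0.18 in mice 1 to 20. Genes called in females numbered 145 with no filter, 1145 by DESeq2, 84 with females alone, 2017 without the low Acta1 mice and 0 in mice 21 to 40 and 41 to 59. In males they numbered 109, 576 and 582 under the first 3 of these settings, 454 by limma voom, 1071 without the low Acta1 mice and 6, 0 and 1 in the 3 blocks. Between the sexes 370 passed in control and 212 in immobilized limbs without the low Acta1 mice, and 346 and 1067 with a mean of at least 1 CPM. Slope calls numbered 3205 without the low Acta1 mice and 2999 without the 2 farthest mice. The cause of these shifts was not tested, though the blocks and the fits of females or males alone hold fewer mice. All 16 slopes under other settings kept their side of the threshold. Median-of-ratios size factors and library sizes without mitochondrial genes changed no call of a Timp effect. Depth limits Timp1 most, with a median of 4.5 to 25.5 reads per library by group.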
